A study of Mus musculus with 32 samples.

Results

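Type I interferon response genes are genes whose transcripts become more abundant when a cell receives a type I interferon signal. The 46 genes described here were taken as a list of symbols and matched to the Ensembl identifiers of the deposited count tables. All 46 were found among the 41388 genes listed, and all 46 had enough counts to be tested in both mouse cohorts of the study. The 24 RNA libraries came from C57BL/6 bone marrow cells sorted as hematopoietic stem cells (HSC; Lin-, cKit+, Sca1+, CD150+, CD48-) or multipotent progenitors (MPP; the CD150- gate). In the Vav cohort, 3 Jarid2-KO libraries of each cell type were set against 3 control libraries of each, from mice aged 8 weeks. Jarid2 is a DNA-binding partner of the Polycomb repressive complex PRC2, and Vav-CRE is active throughout blood cells from their emergence onward. The controls of this cohort are labelled wild-type and also carry the Vav-CRE driver tag. In the Mx1 cohort, 2 libraries each of Jak2V617F Jarid2-KO double mutants, of Jak2V617F mutants and of controls labelled wild-type were made for each cell type. Jak2V617F is the activating kinase mutation of myeloproliferative neoplasms. These mice were 10 weeks old and carried Mx1-CRE, and all 6 groups, controls included, are labelled as taken 2 months after pIpC. pIpC is a double-stranded RNA mimic that makes cells produce interferon, and interferon in turn switches on the Mx1 promoter that drives this Cre, in many tissues besides blood. The sample labels give no Mx1 group with Jarid2-KO alone, whereas the design text names such a group in place of Jak2V617F. The sample labels were followed, and were the design text right, every Mx1 value set beside Jak2V617F below would mean another comparison. Cells were pooled from several male and female mice, a pool that the labels describe in more than 1 way, so each p-value below measures the spread between pools.

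Type I interferons bind a receptor made of Ifnar1 and Ifnar2, whose kinases Jak1 and Tyk2 start a signal to the nucleus. There the complex ISGF3, which contains Irf9, binds interferon-stimulated response elements in promoters. The genes it switches on encode sensors of viral RNA, enzymes that degrade or edit RNA, blockers of viral entry, translation or budding, and feedback inhibitors such as Usp18. In HSCs, interferon is known to end quiescence for a time, and stem cells are known to hold many of these transcripts at a steady level without infection.

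Promoter sequence was looked up for all members, to show the response element letters that part of the list shares. RefSeq gave the promoter, from 250 bases before to 50 bases after the start, for 34 of the 46 (build GRCm38.p6). The motif searched was GAAANNGAAA, the core of the response element, on either strand and with overlapping matches kept. It was found in 13 of the 34 promoters (38.2%), against 1079 of the 27025 genes in the table (3.99%), counting a gene with several starts once. The 13 were those of Bst2, Ddx60, Eif2ak2, Ifih1, Ifit1, Ifit3, Ifit3b, Isg15, Oas1a, Oas1g, Oas3, Rsad2 and Trim30a. The palindrome TTCNNNGAA, the core of the gamma-activated sequence, was found in 9 of the 34 (26.5%), against 2582 of all genes (9.55%). A match describes letters, not a bound site. No promoter was found in the table for Batf2, Dhx58, Ifi27, Ifi27l2a, Mx1, Mx2, Oas2, Parp14, Parp9, Rtp4, Usp18 and Zbp1.

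The 9 stretches below are examples of the motif from the Oas and Ifit families and from Isg15, Bst2, Rsad2 and Ddx60, and not every member that carries it is shown. Each runs 5′ to 3′ on the strand of its gene, and capitals mark the motif letters, which read TTTC where the match lies on the other strand. Isg15 is at chr4:156200860-156200911 on the minus strand, 93 to 42 bases before its start, and Bst2 at chr8:71537572-71537617 on the minus strand. Oas1a is at chr5:120907526-120907560 and Oas1g at chr5:120887614-120887646, both on the minus strand and directly before the start. The next 3 are on the plus strand, Ifit1 at chr19:34640770-34640828, Ifit3 at chr19:34583358-34583431 and Ifit3b at chr19:34607754-34607827. Rsad2 is at chr12:26456548-26456587 on the minus strand, and Ddx60 at chr8:61928019-61928086 on the plus strand, directly before its start.
Isg15: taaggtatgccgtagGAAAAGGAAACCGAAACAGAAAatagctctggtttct
Bst2: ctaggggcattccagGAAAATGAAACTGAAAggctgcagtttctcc
Oas1a: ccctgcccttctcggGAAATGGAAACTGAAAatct
Oas1g: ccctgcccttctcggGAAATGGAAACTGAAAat
Ifit1: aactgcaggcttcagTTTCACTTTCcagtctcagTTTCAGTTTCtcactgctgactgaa
Ifit3: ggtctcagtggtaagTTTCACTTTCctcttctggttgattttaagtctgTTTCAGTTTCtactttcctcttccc
Ifit3b: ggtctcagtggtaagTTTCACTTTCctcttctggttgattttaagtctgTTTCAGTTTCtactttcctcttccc
Rsad2: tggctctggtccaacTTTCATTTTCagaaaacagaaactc
Ddx60: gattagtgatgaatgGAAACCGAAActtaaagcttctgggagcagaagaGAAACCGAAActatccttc
The Ifit3 and Ifit3b stretches were identical over all 74 bases, and Oas1a and Oas1g over 33 of 35 aligned positions. These pairs are close copies of each other, so how their reads were split is uncertain. Isg15 and Bst2 hold overlapping copies of the motif, whereas Ifit1, Ifit3 and Ddx60 hold a pair of separate ones.

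The 46 genes lie on 14 chromosomes, and 22 of them sit in 8 clusters whose neighbours are at most 100 kb apart. These clusters include the Oas genes of chromosome 5 and the Ifit genes of chromosome 19. Levels between genes were compared by the authors' RPKM (read counts scaled by transcript length and depth). Over the 12 Vav libraries the highest mean RPKM was that of Lgals3bp, a secreted glycoprotein, at 115, followed by Rtp4, an interferon-inducible chaperone, at 109 and Ifi27, a small membrane protein, at 76.3. The lowest were the dynamin-like GTPases Mx2 at 1.54 and Mx1 at 1.78, with Ifit3b, a copy of Ifit3, at 1.65 between them. In the Mx1 cohort Lgals3bp was again first, at a mean of 65.2 RPKM. For 35 of the 46 members the 2 cohorts' tables list the exon starts differently, although the length given for each gene is the same. Levels of the members were not compared between cohorts.

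**Figure D1:**
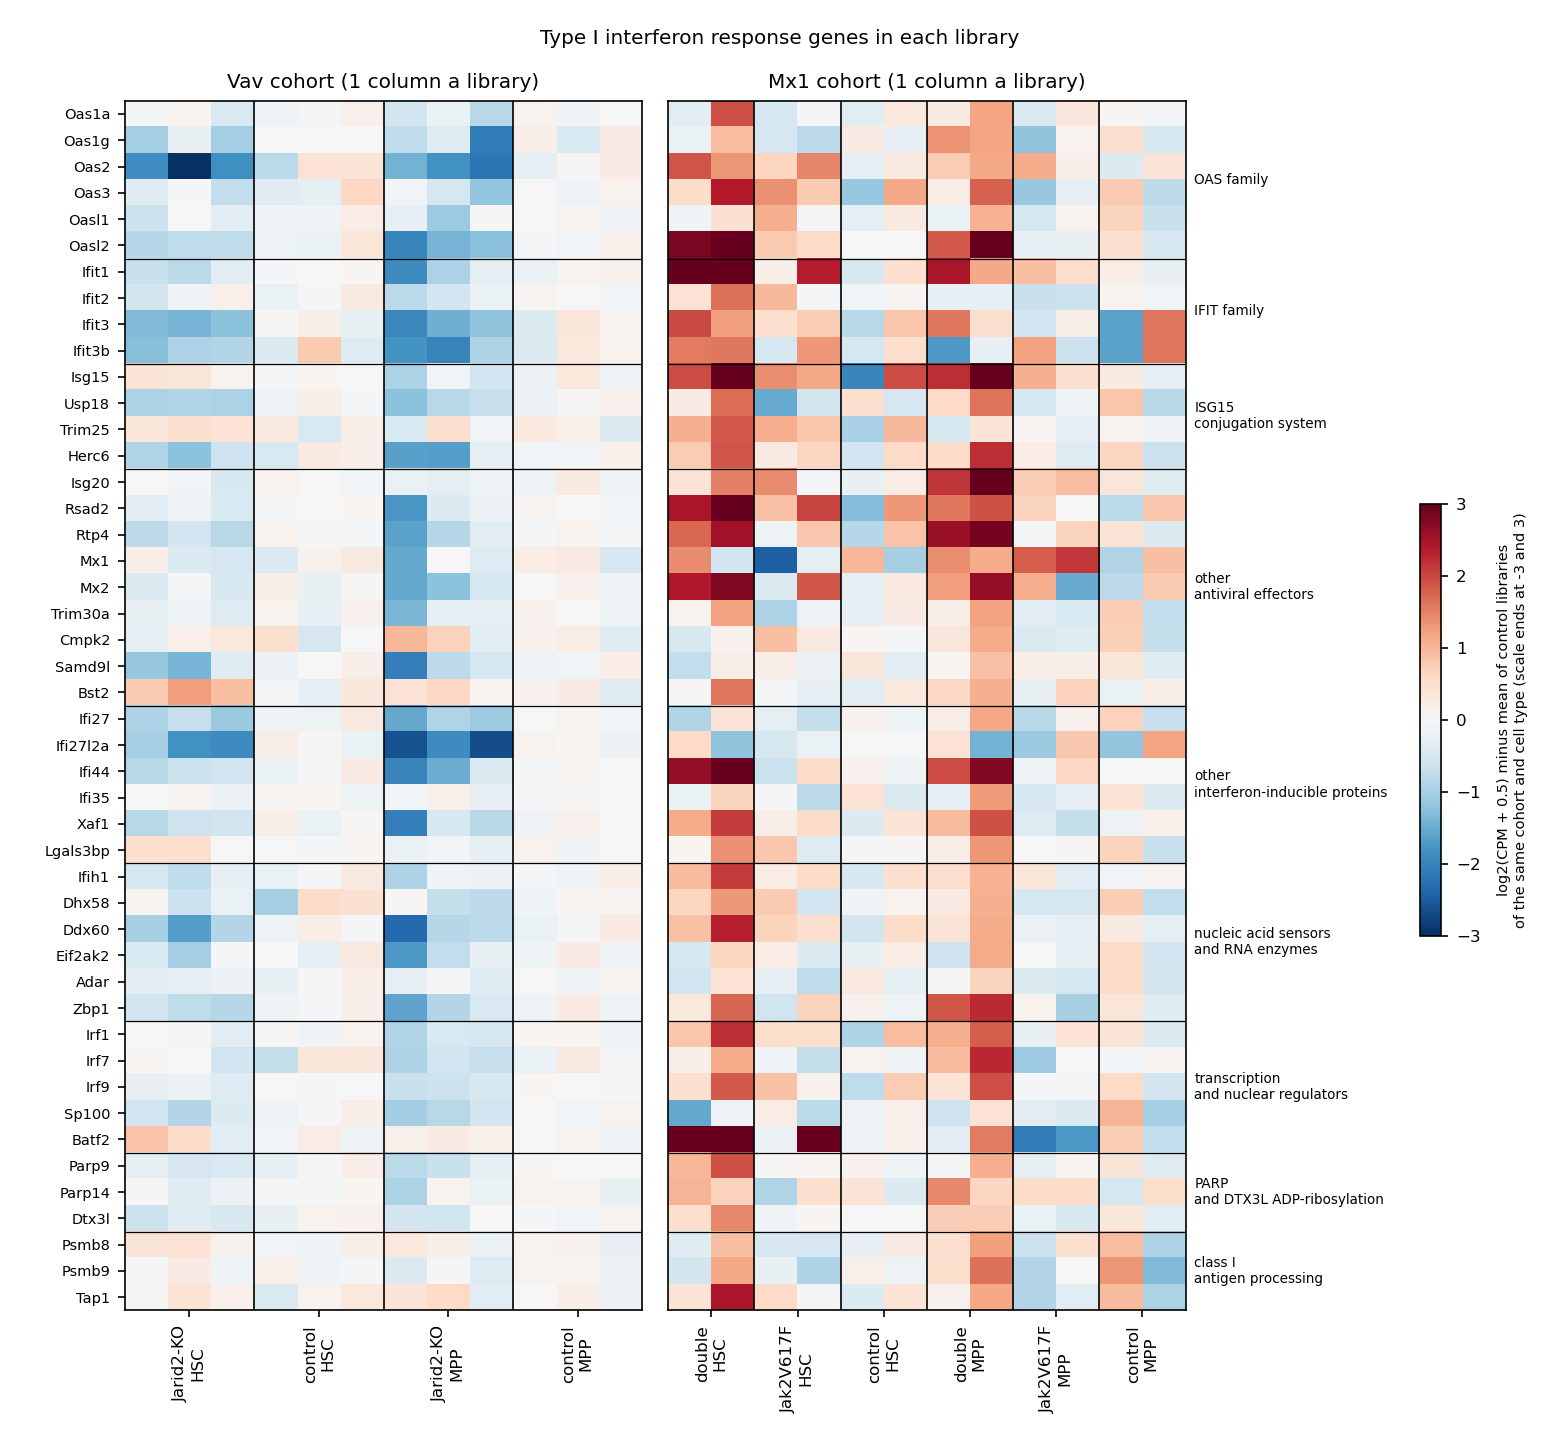
Each row is a member and each column a library, and colour gives log2(CPM + 0.5) minus the control mean of the same cohort and cell type, limited to the range from -3 to 3. Most members are below their controls in the 6 Vav Jarid2-KO libraries and above them in the Mx1 double mutants.

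Total counts ran from 10473535 to 27232379 per library in the Vav cohort and from 7852483 to 20724168 in the Mx1 cohort. In the Mx1 cohort, genes of heart muscle took over 4% of counts in 6 of the 12 libraries, at 7.73% in double mutant HSC replicate 1, 8.56% in double mutant MPP replicate 1, 6.12% in Jak2V617F HSC replicate 2, 8.06% and 7.35% in the Jak2V617F MPP libraries and 9.36% in control MPP replicate 2. The other 6 had 0.528% to 1.22%, and no Vav library had more than 0.003%. Slamf1, which encodes the CD150 of the sort, was at 82.4 to 95.5 CPM (counts scaled to library depth) in Vav Jarid2-KO HSCs and at 57.4 to 66.1 in Vav control HSCs, against 2.19 to 14.1 in the Vav MPPs. In Mx1 HSCs it was at 30.8 and 124 CPM in double mutants, 12.7 and 5.04 in Jak2V617F and 0.196 and 5.21 in controls, so the Jak2V617F and control HSC libraries do not carry the transcript of their gate at the level of the Vav HSCs. Cd48, a marker the HSC gate leaves out, was at 13.9 and 20.2 CPM in double mutant HSCs, 123 and 93.7 in Jak2V617F HSCs and 122 and 133 in control HSCs. Jarid2 itself had 80.2, 83.0 and 144 CPM in Vav KO HSCs and 95.0, 77.6 and 109 in control HSCs. It was at 68.3 and 169 CPM in double mutant HSCs and at 51.5 and 63.5 in Jak2V617F HSCs, and a gene-level count cannot check a deletion of a few exons.

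In Vav Jarid2-KO HSCs, 4 of the 46 members fell at an adjusted p under 0.05 in edgeR's quasi-likelihood test with Benjamini-Hochberg adjustment, and none rose. They were the RNA-degradation activator Oas2, the RNA-binding protein Ifit3, the feedback inhibitor Usp18 and Ifi27. Of all 15818 genes tested, 0.316% were called lower and 0.253% higher in this comparison. In MPPs 6 fell and none rose, the same 4 with the oligoadenylate synthetase-like Oasl2 and Ifi27l2a, a relative of Ifi27, against 0.436% of all genes called lower and 0.512% higher. The median log2 fold change of KO over control was -0.43 in HSCs and -0.59 in MPPs, against -0.03 and 0.02 over all genes. In HSCs 39 members were below 0, against 51.9% of all genes, and in MPPs 41 were below 0, against 48.2%. At an unadjusted p under 0.05, 20 members were lower and 1 higher in HSCs, against 17% of all genes in either direction, and 27 lower and none higher in MPPs, against 19.3%.

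The groups can also be set side by side library by library. In HSCs, 22 of the 46 members were lower in every KO library than in any control library, against 10.7% of all genes, and 3 (Bst2, Isg15 and Trim25) were higher in every KO library, against 16.2%. In MPPs 26 were lower in every KO library, against 12.6%, and 1 (Batf2) was higher in every one, against 9.07%. Lower without overlap in both cell types were 19 members, against 4.06% of all genes, among them Oas2, Oasl2, Ifit1, Ifit3, Ddx60, Zbp1, Irf9, Sp100, Usp18, Herc6, Rtp4, Samd9l, Parp9, Ifi27, Ifi27l2a and Ifi44. The fitted change was below 0 in both cell types for 38 members and above 0 in both for 4, which were Batf2, Psmb8, Tap1 and Bst2.

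The 2'-5'-oligoadenylate synthetases make the messenger that switches on RNase L. All 6 members of the OAS family, which also holds synthetase-like relatives, had fitted changes below 0 in both cell types. The medians were -0.66 in HSCs and -0.79 in MPPs. Oas2 (ENSMUSG00000032690, chr5:120730333-120749853, minus strand) had 6.83, 2.92 and 7.0 CPM in KO HSCs and 14.6, 35.3 and 34.6 CPM in control HSCs. The groups did not overlap, although control replicate 1 lay nearer the KO libraries than the other controls. The log2 fold change was -2.42 (SE 0.40, adjusted p = 0.0193). Among MPP libraries, Oas2 had 16.9, 12.5 and 9.83 CPM in KO libraries and 37.4, 46.5 and 54.5 CPM in controls, and fell by 1.82 in log2 terms (SE 0.39, adjusted p = 0.0434). Every KO library was below every control here too. Oasl2 (ENSMUSG00000029561, chr5:114896936-114912234, plus strand), a relative of the synthetases with ubiquitin-like repeats, had 50.6, 73.9 and 81.9 CPM in KO MPPs and 189, 185 and 217 CPM in control MPPs. It fell by 1.52 in log2 terms (SE 0.20, adjusted p = 0.00289). In HSCs it had 94.1, 101 and 99.1 CPM in KO libraries and 153, 147 and 218 CPM in controls, without overlap, and missed the threshold at -0.88 (SE 0.20, adjusted p = 0.0708). Oas1g was at 3.34, 6.14 and 3.33 CPM in KO HSCs and 7.28, 7.21 and 7.42 CPM in controls. That difference of -0.83 did not pass the test (SE 0.45, adjusted p = 0.358).

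The IFIT proteins bind foreign RNA ends and block translation, and all 4 had fitted changes below 0 in both cell types, with medians of -1.07 in HSCs and -1.28 in MPPs. Ifit3 (ENSMUSG00000074896, chr19:34583531-34588731, plus strand), known in human cells to stabilise IFIT1 on RNA, had 4.28, 4.05 and 4.61 CPM in KO HSCs and 11.9, 13.2 and 9.77 CPM in control HSCs. Its log2 fold change was -1.51 (SE 0.31, adjusted p = 0.0481), and the KO libraries lay close together, well below the controls. Among MPP libraries, Ifit3 had 3.89, 5.57 and 6.68 CPM in KO libraries and 12.0, 20.8 and 16.9 CPM in controls, and fell by 1.63 in log2 terms (SE 0.32, adjusted p = 0.0272). Its copy Ifit3b, at 1.05, 1.5 and 1.56 CPM in KO HSCs and 2.35, 6.05 and 2.39 CPM in control HSCs, was also without overlap but did not pass the test (log2 fold change -1.48, SE 0.51, adjusted p = 0.183). Ifit1 had 40.6, 37.0 and 51.8 CPM in KO HSCs and 63.0, 64.2 and 68.0 CPM in control HSCs. Its MPP values were 23.2, 44.4 and 70.7 CPM in KO libraries and 75.1, 91.8 and 94.8 CPM in controls. These groups too were separate, with wide spread among the KO MPPs, and the changes of -0.67 and -0.92 missed the threshold (adjusted p = 0.281 and 0.129).

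Among the sensors of viral nucleic acid and the RNA enzymes, all 6 were below 0 in both cell types and none passed the test. Ddx60, a helicase that assists RNA sensing, had 70.7, 44.3 and 76.6 CPM in KO HSCs and 128, 163 and 136 CPM in control HSCs (log2 fold change -1.23, SE 0.33, adjusted p = 0.112). Its MPP values were 31.1, 87.1 and 91.9 CPM in KO libraries and 137, 154 and 188 CPM in controls (log2 fold change -1.20, SE 0.33, adjusted p = 0.0901). Every KO library was below every control in both, and KO MPP replicate 1 was the lowest of all. Zbp1, a sensor of left-handed RNA and DNA, had 5.08, 8.63 and 11.6 CPM in KO MPPs and 15.2, 19.2 and 14.7 CPM in control MPPs (log2 fold change -0.95, SE 0.30, adjusted p = 0.119). The double-stranded RNA sensor Ifih1 (MDA5) had a change of -0.58 in HSCs and -0.38 in MPPs. Dhx58 (LGP2), which modulates that sensing, had 77.4, 46.3 and 62.9 CPM in KO HSCs and 36.1, 107 and 100 CPM in control HSCs. These overlap, since control replicate 1 is the lowest library of the 6.

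The transcription factors and nuclear proteins were below 0 for 4 of 5 members in each cell type, and none passed the test. Sp100, a nuclear body protein, had 172, 139 and 190 CPM in KO HSCs and 229, 249 and 291 CPM in control HSCs (log2 fold change -0.69, SE 0.18, adjusted p = 0.112). In MPPs it had 151, 177 and 209 CPM in KO libraries and 311, 294 and 335 CPM in controls, close to the threshold at -0.81 (SE 0.18, adjusted p = 0.0538). Both comparisons were free of overlap. Irf1, a factor with its own interferon-inducible targets, had 106, 143 and 140 CPM in KO MPPs and 207, 209 and 179 CPM in control MPPs (log2 fold change -0.61, SE 0.17, adjusted p = 0.0939), but its HSC change was -0.15. Batf2, a basic leucine zipper factor, stood apart from the others with 15.7, 16.7 and 15.7 CPM in KO MPPs and 13.9, 15.2 and 13.1 CPM in control MPPs. Its changes of 0.37 in HSCs and 0.19 in MPPs did not pass the test.

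In the ISG15 system, Isg15 is the ubiquitin-like modifier, Herc6 the main mouse ligase and Usp18 the protease that removes it and also blocks the receptor. Usp18 (ENSMUSG00000030107, chr6:121245906-121270916, plus strand) had 44.5, 46.5 and 45.0 CPM in KO HSCs and 79.5, 98.7 and 84.1 CPM in control HSCs. Its log2 fold change was -1.02 (SE 0.20, adjusted p = 0.038). Among MPP libraries, Usp18 had 40.5, 53.4 and 58.7 CPM in KO libraries and 84.1, 98.0 and 105 CPM in controls, and fell by 0.91 in log2 terms (SE 0.20, adjusted p = 0.0435). The KO libraries were near-equal in HSCs and all well below the controls in both cell types. Herc6, at 57.4, 45.2 and 69.7 CPM in KO HSCs and 77.5, 130 and 122 CPM in control HSCs, had a change of similar size that missed the threshold (-1.02, SE 0.34, adjusted p = 0.172). Isg15 did not move with them in HSCs, with 23.6, 23.1 and 19.3 CPM in KO libraries and 17.3, 18.7 and 17.8 CPM in controls. Its log2 fold change there was 0.23 (SE 0.25, adjusted p = 0.67), and it was -0.52 in MPPs (SE 0.25, adjusted p = 0.276).

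**Figure D2:**
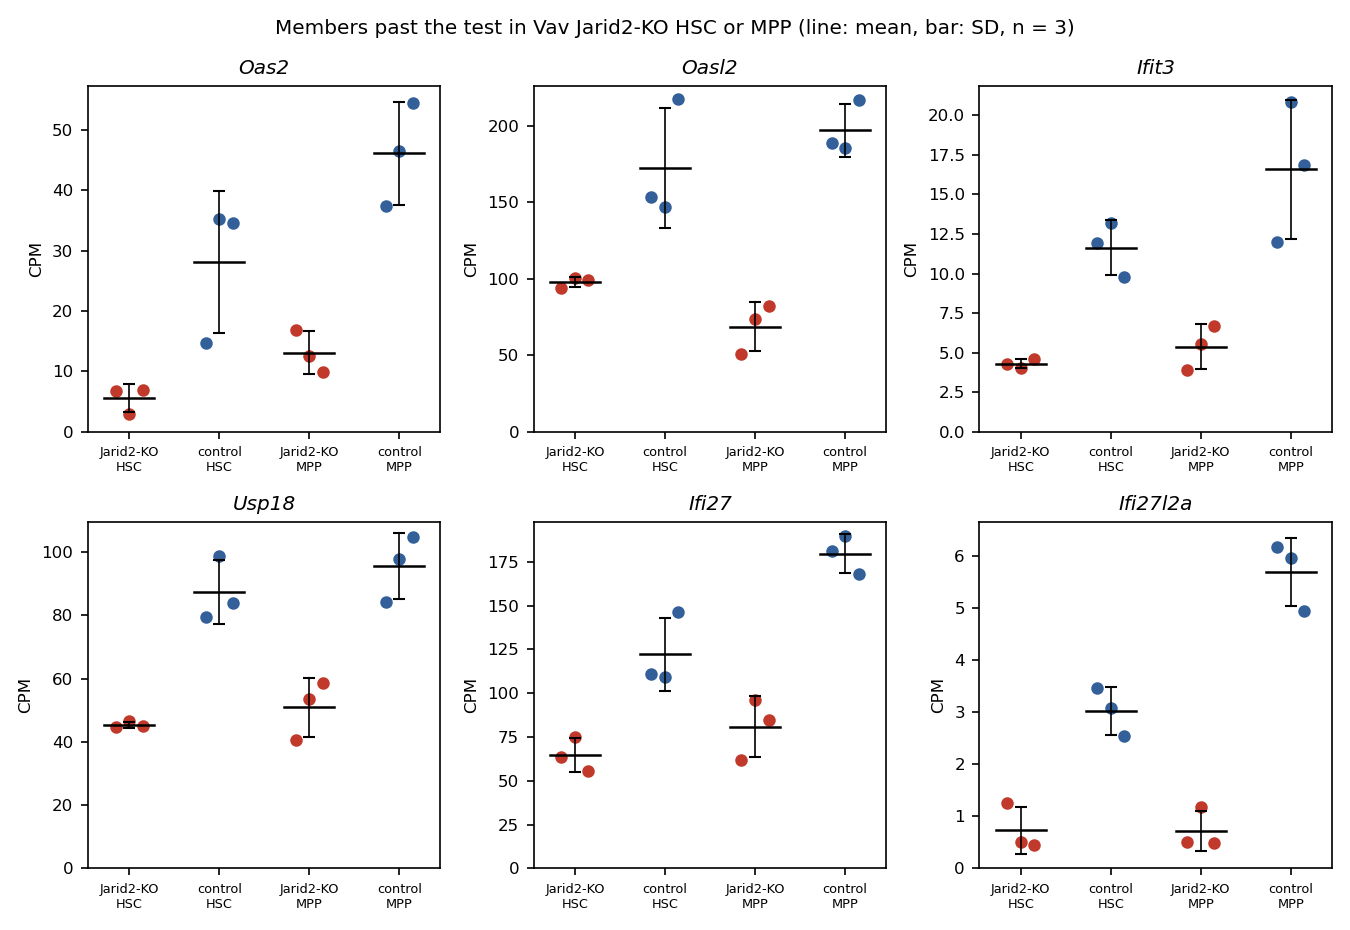
CPM in each Vav library of the 6 members that passed the test, with Jarid2-KO left of control for HSC and MPP; a line marks each mean and a bar the SD (n = 3). Every Jarid2-KO point lies below every control point of its cell type in all 6 panels.

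The class I antigen processing genes showed no such separation. The immunoproteasome subunit Psmb8 had 179, 186 and 150 CPM in KO HSCs and 130, 126 and 158 CPM in control HSCs, with overlapping groups. Its log2 fold changes were 0.25 in HSCs and 0.11 in MPPs. Those of the peptide transporter Tap1 were 0.11 and 0.26, and those of Psmb9, another immunoproteasome subunit whose exons overlap Tap1 on the opposite strand by 212 bases, were -0.03 and -0.28. None of these passed the test (adjusted p from 0.387 to 0.943).

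Of the 9 other antiviral members, 8 were below 0 in HSCs and 7 in MPPs, and none passed the test. Rtp4 had 107, 124 and 105 CPM in KO HSCs and 199, 177 and 181 CPM in control HSCs (log2 fold change -0.80, SE 0.24, adjusted p = 0.151). In MPPs it had 81.3, 139 and 196 CPM in KO libraries and 239, 269 and 243 CPM in controls (log2 fold change -0.85, SE 0.24, adjusted p = 0.0994). The growth-restraining factor Samd9l had 76.8, 64.1 and 132 CPM in KO HSCs and 151, 169 and 192 CPM in control HSCs. Its change was -0.98 there (SE 0.33) and -1.01 in MPPs (SE 0.33), with no overlap in either. Mx2 had 2.57, 3.34 and 5.82 CPM in KO MPPs and 8.38, 9.33 and 7.76 CPM in control MPPs (log2 fold change -1.12, SE 0.35, adjusted p = 0.119). The gene Mx1 was at -0.33 and -0.59 in HSCs and MPPs, and the exonuclease Isg20 at -0.24 and -0.21. Bst2 (tetherin), which holds virions at the cell surface, went the other way, with 54.6, 75.8 and 60.0 CPM in KO HSCs and 30.5, 25.7 and 40.2 CPM in control HSCs. That log2 difference of 0.92 (SE 0.23) did not overlap and missed the threshold (adjusted p = 0.085).

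The ADP-ribosyltransferase Parp9 and its ubiquitin ligase partner Dtx3l share 458 exon bases on opposite strands, and whether reads were counted by strand is not given in the sources used here. Parp9 had 83.4, 70.7 and 72.7 CPM in KO HSCs and 84.2, 102 and 116 CPM in control HSCs, and Dtx3l had 146, 178 and 164 CPM and 195, 246 and 248 CPM in the same groups. Both were without overlap at log2 fold changes of -0.48 and -0.57 that did not pass the test.

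Among the other interferon-inducible proteins, Ifi27 (ENSMUSG00000064215, chr12:103434211-103440239, plus strand) had 63.3, 75.0 and 55.7 CPM in KO HSCs and 111, 109 and 146 CPM in control HSCs. Its log2 fold change was -0.98 (SE 0.19, adjusted p = 0.038). Its MPP values were 62.0, 96.3 and 84.5 CPM in KO libraries and 181, 190 and 168 CPM in controls (log2 fold change -1.15, SE 0.19, adjusted p = 0.0108). The KO libraries were below all controls in both cell types. Its neighbour Ifi27l2a (ENSMUSG00000079017, chr12:103442167-103443680, minus strand) had 0.501, 1.17 and 0.477 CPM in KO MPPs and 6.16, 5.95 and 4.94 CPM in control MPPs. This was the largest fitted change of any member in the Vav cohort, at -2.96 (SE 0.51, adjusted p = 0.0131), on few reads. In HSCs it had 1.25, 0.501 and 0.444 CPM in KO libraries and 3.45, 3.08 and 2.53 CPM in controls and missed the threshold (-2.11, SE 0.50, adjusted p = 0.0758). Ifi44 had 32.3, 46.2 and 97.9 CPM in KO MPPs and 126, 135 and 130 CPM in control MPPs (log2 fold change -1.14, SE 0.31, adjusted p = 0.0869). Lgals3bp had 460, 469 and 326 CPM in KO HSCs and 326, 319 and 349 CPM in control HSCs, overlapping, at 0.27.

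The number of members past the threshold rested on single libraries, while the direction of the called members was the same without each of them. In HSCs, 1 member was called lower without control replicate 1, against 0.209% of all genes, and none was called without any other single HSC library. In MPPs, 2, 1 and 1 were called lower without control replicates 1, 2 and 3, against 0.109%, 0.16% and 0.0973% of all genes. Without KO replicates 1, 2 and 3 the counts were 5, 3 and 20, against 0.464%, 0.299% and 2.63%, so the share of all genes called lower was also highest without KO replicate 3. Oasl2 in MPPs was called in all 6 of these fits, with adjusted p at most 0.0231 over all alternatives. Ifit3, Ifi27 and Ifi27l2a in MPPs were called in 3 of 6, Oas2 in 2 of 6 and Usp18 in 1 of 6. The replicate block left 1 call in HSCs and 4 in MPPs, against 0.152% and 0.291% of all genes called lower, and the median log2 fold change stayed between -0.55 and -0.36 in HSCs and between -0.73 and -0.51 in MPPs over 12 alternatives each. Fitted changes of granulocyte genes were above 0 for 7 of 7 in both comparisons, and none was called. They took 0.26% to 0.794% of counts in KO HSCs and 0.0928% to 0.322% in control HSCs, which overlap. In MPPs they took 0.542% to 2.13% in KO libraries and 0.401% to 0.539% in controls. In bulk RNA, fewer cells of a type and less RNA per cell cannot be told apart, and the part of granulocyte RNA in these results was not tested. The 6 markers of plasmacytoid dendritic cells, known as strong interferon producers, summed to 1.69 to 8.40 CPM over all Vav libraries. Stroma and endothelium markers summed to 27.9 to 483 CPM in KO MPPs and 27.6 to 78.1 CPM in control MPPs. Of these, 6 of 7 were above 0 and Cxcl12 was called higher. In HSCs they summed to 22.2 to 24.2 CPM in KO and 26.4 to 80.6 CPM in control libraries. Erythroid markers summed to 23.3 to 207 CPM in KO MPPs and 35.7 to 58.0 CPM in control MPPs. Their part was not tested.

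The KO effect in MPPs minus that in HSCs passed the threshold for no member and for no gene at all (0% of 15818), with 1 member at an unadjusted p under 0.05 and a median of -0.17, so the effects in the 2 cell types were not shown to differ. DESeq2 and limma-voom also called no member for this difference. The fitted change was lower in MPPs than in HSCs for 35 of the 46. Among Vav controls alone, no member passed the test between MPPs and HSCs, by any of the 3 tools, where 0.657% of all genes were lower and 0.512% higher in MPPs. The median was 0.19, 3 members were at an unadjusted p under 0.05, and 16 members were higher in every control MPP library than in any control HSC library, against 10.7% of all genes. Only Batf2 was lower without overlap, at 13.9, 15.2 and 13.1 CPM in control MPPs and 20.9, 25.9 and 19.6 CPM in control HSCs, against 7.69% of all genes.

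In the Mx1 cohort the comparison of double mutants with Jak2V617F mutants carries the Jarid2 deletion as its labelled difference. No member passed the threshold of edgeR's test in HSCs or MPPs, and neither did any of the 19616 genes tested (0% in each direction). The fitted changes were nevertheless above 0 for 40 of 46 members in HSCs, with a median of 0.83 against -0.01 for all genes, and for 43 of 46 in MPPs, with a median of 1.10 against -0.04. At an unadjusted p under 0.05 there were 6 members in HSCs, against 4.68% of all genes in either direction, and 9 in MPPs, against 3.00%, all higher. DESeq2's Wald test called 2 members higher in HSCs, against 0.581% of all genes, and 1 in MPPs, against 0.138%, while limma-voom called none. In HSCs, 24 members were higher in both double mutant libraries than in either Jak2V617F library, against 17.4% of all genes, and 1 (the nucleotide kinase Cmpk2) was lower, against 10% of all genes. In MPPs 33 were higher, against 16.9%, and 1 (the gene Mx1) was lower, against 15.4%.

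Of the OAS family, Oasl2 had 62.2 and 177 CPM in double mutant HSCs, 14.7 and 12.8 CPM in Jak2V617F HSCs and 8.43 and 8.33 CPM in control HSCs. The log2 fold change of double mutants over Jak2V617F was 2.79 (SE 0.66, adjusted p = 0.214). In MPPs it had 41.1 and 103 CPM in double mutants, 9.30 and 9.57 CPM in Jak2V617F mutants and 16.1 and 7.76 CPM in controls, at 2.84 (SE 0.66, adjusted p = 0.629). Both double mutant libraries were above all others in each cell type. Oas2, which fell in the Vav KO cells, had 21.1 and 14 CPM in double mutant HSCs and 8.54 and 15.6 CPM in Jak2V617F HSCs. These overlap, at 0.35 (SE 0.71).

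Of the IFIT family, Ifit1 had 26.3 and 50.9 CPM in double mutant HSCs, 2.85 and 14.6 CPM in Jak2V617F HSCs and 1.63 and 3.61 CPM in control HSCs. Its log2 fold change over Jak2V617F was 1.92 (SE 0.82, adjusted p = 0.984). Double mutants were highest, although replicates within each group differed widely. Ifit3 was at 8.98 and 5.09 CPM in double mutant HSCs and 2.85 and 3.59 CPM in Jak2V617F HSCs (log2 fold change 0.93, SE 1.28). In MPPs the largest change of the family was downward, that of Ifit3b at -2.25, on few reads. It had 0 and 0.891 CPM in double mutant MPPs and 3.35 and 0.557 CPM in Jak2V617F MPPs, which overlap. The other 3 IFIT members were above 0 there and higher without overlap. The sensor Zbp1 had 11.9 and 15.7 CPM in double mutant MPPs and 3.18 and 1.21 CPM in Jak2V617F MPPs (log2 fold change 2.56, SE 1.06), and Ifih1 had 54.6 and 121 CPM in double mutant HSCs and 32.9 and 41.0 CPM in Jak2V617F HSCs (log2 fold change 0.95, SE 0.52). Neither passed the test.

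Of the transcription factors, Irf7, which amplifies interferon production, had 47.0 and 117 CPM in double mutant MPPs, 11.1 and 23.9 CPM in Jak2V617F MPPs and 22.8 and 25.6 CPM in control MPPs. It is shown in the plot of Mx1 cohort CPM for its role in the pathway and was chosen after its values were seen, at a log2 fold change of 2.15 over Jak2V617F (SE 0.62). Batf2 had 16.5 and 38.7 CPM in double mutant HSCs, 0.124 and 5.39 CPM in Jak2V617F HSCs and 0.131 and 0.278 CPM in control HSCs. Its change over Jak2V617F was 3.11 (SE 1.37), with 1 Jak2V617F library near 0. Sp100 was not higher in HSCs, with 83.2 and 219 CPM in double mutants and 285 and 137 CPM in Jak2V617F mutants, at -0.83 (SE 0.73).

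Usp18 had 37.2 and 101 CPM in double mutant HSCs, 10.7 and 21.3 CPM in Jak2V617F HSCs and 45.0 and 21.8 CPM in control HSCs. Its log2 fold change over Jak2V617F was 1.83 (SE 0.75, adjusted p = 0.924), and the double mutants overlapped with the controls. Isg15 had 13.2 and 36.5 CPM in double mutant MPPs and 5.70 and 3.62 CPM in Jak2V617F MPPs (log2 fold change 2.32, SE 1.45). Psmb9 had 71.9 and 159 CPM in double mutant MPPs and 26.7 and 50.1 CPM in Jak2V617F MPPs, a change of 1.5 (SE 0.82), and Tap1 changes were 1.09 in HSCs and 1.24 in MPPs. None of these changes passed the test.

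Rtp4 had 57.0 and 98.2 CPM in double mutant HSCs, 15.2 and 29.7 CPM in Jak2V617F HSCs and 9.02 and 30.9 CPM in control HSCs (log2 fold change over Jak2V617F 1.54, SE 0.63). In MPPs it had 80.4 and 97.4 CPM in double mutants, 12.2 and 20.7 CPM in Jak2V617F mutants and 17.1 and 9.6 CPM in controls (log2 fold change 2.36, SE 0.65, adjusted p = 0.944). Ifi44 had 36.2 and 115 CPM in double mutant HSCs, 3.22 and 8.12 CPM in Jak2V617F HSCs and 5.88 and 4.86 CPM in control HSCs (log2 fold change 3.46, SE 0.72, adjusted p = 0.202). For both genes the double mutant libraries were above all other libraries of their cell type. Isg20 had 71.0 and 328 CPM in double mutant MPPs, 26.4 and 30.2 CPM in Jak2V617F MPPs and 20.4 and 12.0 CPM in control MPPs, whereas its HSC libraries overlapped. The gene Mx1, whose promoter drives the Cre of this cohort, had 7.62 and 1.55 CPM in double mutant HSCs and 0.0618 and 2.05 CPM in Jak2V617F HSCs, and 3.41 and 2.67 CPM in double mutant MPPs and 4.69 and 5.95 CPM in Jak2V617F MPPs. Its groups overlapped in HSCs, and its fitted change was -0.87 in MPPs (SE 1.53). Ifi27l2a, at 7.03 and 1.66 CPM in double mutant HSCs and 3.09 and 3.85 CPM in Jak2V617F HSCs, overlapped too.

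**Figure D3:**
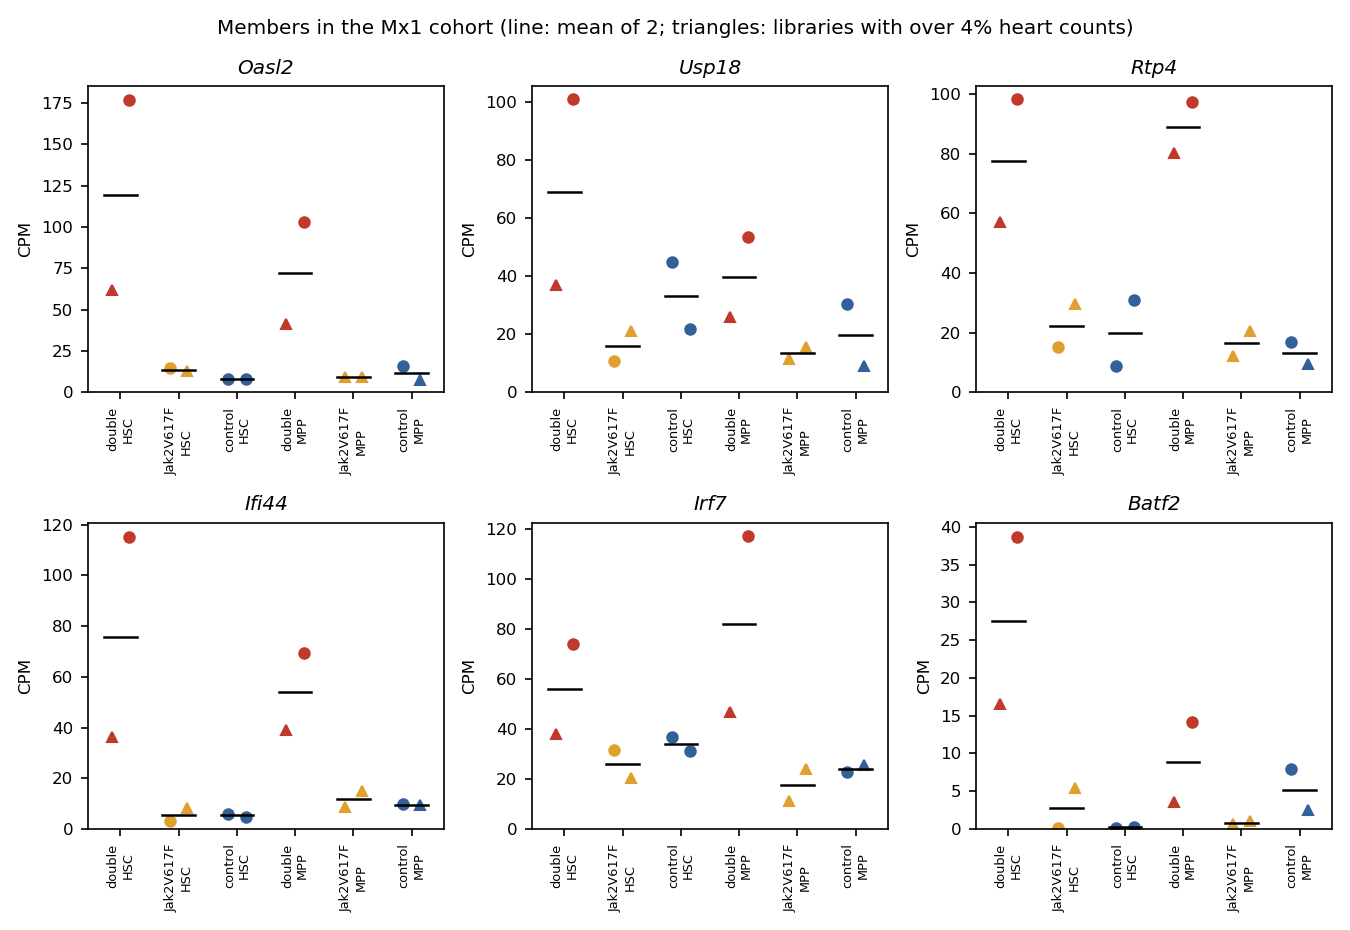
CPM of Oasl2, Usp18, Rtp4, Ifi44, Irf7 and Batf2 in each Mx1 library, with double mutants, Jak2V617F mutants and controls from left to right for HSC and MPP; a line marks the mean of 2, and triangles mark libraries with over 4% heart muscle counts. For Oasl2, Rtp4 and Ifi44 both double mutant points are above the other points of their cell type.

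Against controls, which share the double mutant libraries with the comparison above, the medians were 0.78 in HSCs (0.11 over all genes) and 0.58 in MPPs (-0.04 over all genes), with 37 and 41 of 46 above 0. No member passed edgeR's test (0% of all genes). At an unadjusted p under 0.05 there were 8 in HSCs, against 6.37% of all genes, and 7 in MPPs, against 4.71%. DESeq2 called 4 higher in HSCs, against 0.642% of all genes, and 2 in MPPs, against 0.367%, and limma-voom called 1 in HSCs, against 0.0969%, and none in MPPs. In HSCs 25 members were higher without overlap, a share to be read against 23.9% of all genes, and 1 (Sp100) was lower, against 11.9%. In MPPs 21 were higher, against 14.1%, and 1 (Ifit2) was lower, against 7.98%. Of Jak2V617F mutants over controls, the median was 0.21 in HSCs, where 3 members were higher without overlap, against 13.7% of all genes, and 6 lower, against 13.3%. It was -0.40 in MPPs, where 5 were higher, against 16%, and 3 lower, against 8.47%. No member was called by edgeR, DESeq2 or limma-voom there, and 1 in HSCs and 0 in MPPs had an unadjusted p under 0.05. Between control MPPs and control HSCs the median was -0.09, with 6 members higher without overlap, against 11.2%, 5 lower, against 13.7%, none called by any of the 3 tools and 2 at an unadjusted p under 0.05. The added effect in MPPs minus that in HSCs was called for no member (0% of all genes), with 2 at an unadjusted p under 0.05 and a median of 0.45.

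The heart muscle counts divide the Mx1 libraries unevenly between groups, so values within each set of libraries stand beside the pooled ones. Among HSC libraries with over 4% heart counts, 1 double mutant against 1 Jak2V617F library, 37 of 46 members were above 0 with a median log2 difference of 0.44, against 0.03 for all genes. Among those with at most 4%, again 1 against 1, 42 were above 0 with a median of 1.57, against 0.24. In MPPs with over 4%, 1 double mutant against 2 Jak2V617F libraries, 40 were above 0 with a median of 0.70, against 0.01, and no Jak2V617F MPP library had at most 4%. These are single libraries without a test. With a term for the heart set in the model, edgeR called 2 members higher in double mutant than in Jak2V617F HSCs, against 0.953% of all genes called higher. They were Oasl2 at 2.66 (SE 0.41, adjusted p = 8.67e-05) and Ifi44 at 3.32 (SE 0.55, adjusted p = 0.000308), whose adjusted p over all single changes of setting reached 1. In MPPs the same model called 3, Oasl2, Isg20 and Rtp4, against 0.163% of all genes. Against controls it called 8 in HSCs (Oasl2, Ifi44, Ifit1, Tap1, Batf2, Parp9, Isg20 and Ddx60), against 0.948%, and 4 in MPPs (Isg20, Oasl2, Rtp4 and Ifi44), against 0.622%. Without double mutant HSC replicate 2 the HSC median over Jak2V617F was 0.25, and without replicate 1 it was 1.19. Without double mutant MPP replicate 2 the MPP median was 0.62, and without replicate 1 it was 1.4.

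The summed CPM of the 46 members was 3326, 3365 and 3200 in Vav KO HSCs and 3788, 4042 and 4499 in Vav control HSCs. It was 2660, 3374 and 3467 in KO MPPs and 4666, 4820 and 4721 in control MPPs. Every Vav KO library was thus below every control of its cell type. In Mx1 HSCs it was 1860 and 4265 in double mutants, 2000 and 1459 in Jak2V617F mutants and 1635 and 1853 in controls. In Mx1 MPPs it was 1851 and 3496 in double mutants, 1136 and 1258 in Jak2V617F mutants and 1937 and 965 in controls. The double mutant library with few heart counts was the highest of its cell type in both, and the other lay within the range of the remaining libraries. Granulocyte transcripts took 0.241% to 0.603% of counts in double mutants, 2.12% to 5.51% in Jak2V617F mutants and 1.78% to 7.50% in controls. Monocyte and macrophage markers summed to 50.9 and 230 CPM in double mutant HSCs, 429 and 529 in Jak2V617F HSCs and 631 and 754 in control HSCs, and plasmacytoid dendritic cell markers to 1.19 to 16.2 CPM over the Mx1 libraries. Erythroid markers summed to 807 and 3339 CPM in double mutant MPPs, 215 and 237 in Jak2V617F MPPs and 117 and 150 in control MPPs. In HSCs they were lower in double mutants, at 49.6 and 103 CPM, than in Jak2V617F mutants, at 199 and 506. T and NK lymphocyte markers summed to 66.3 and 94.7 CPM in double mutant HSCs and 336 and 515 in Jak2V617F HSCs. The part of these cell type differences in the members' changes was not tested.

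**Figure D4:**
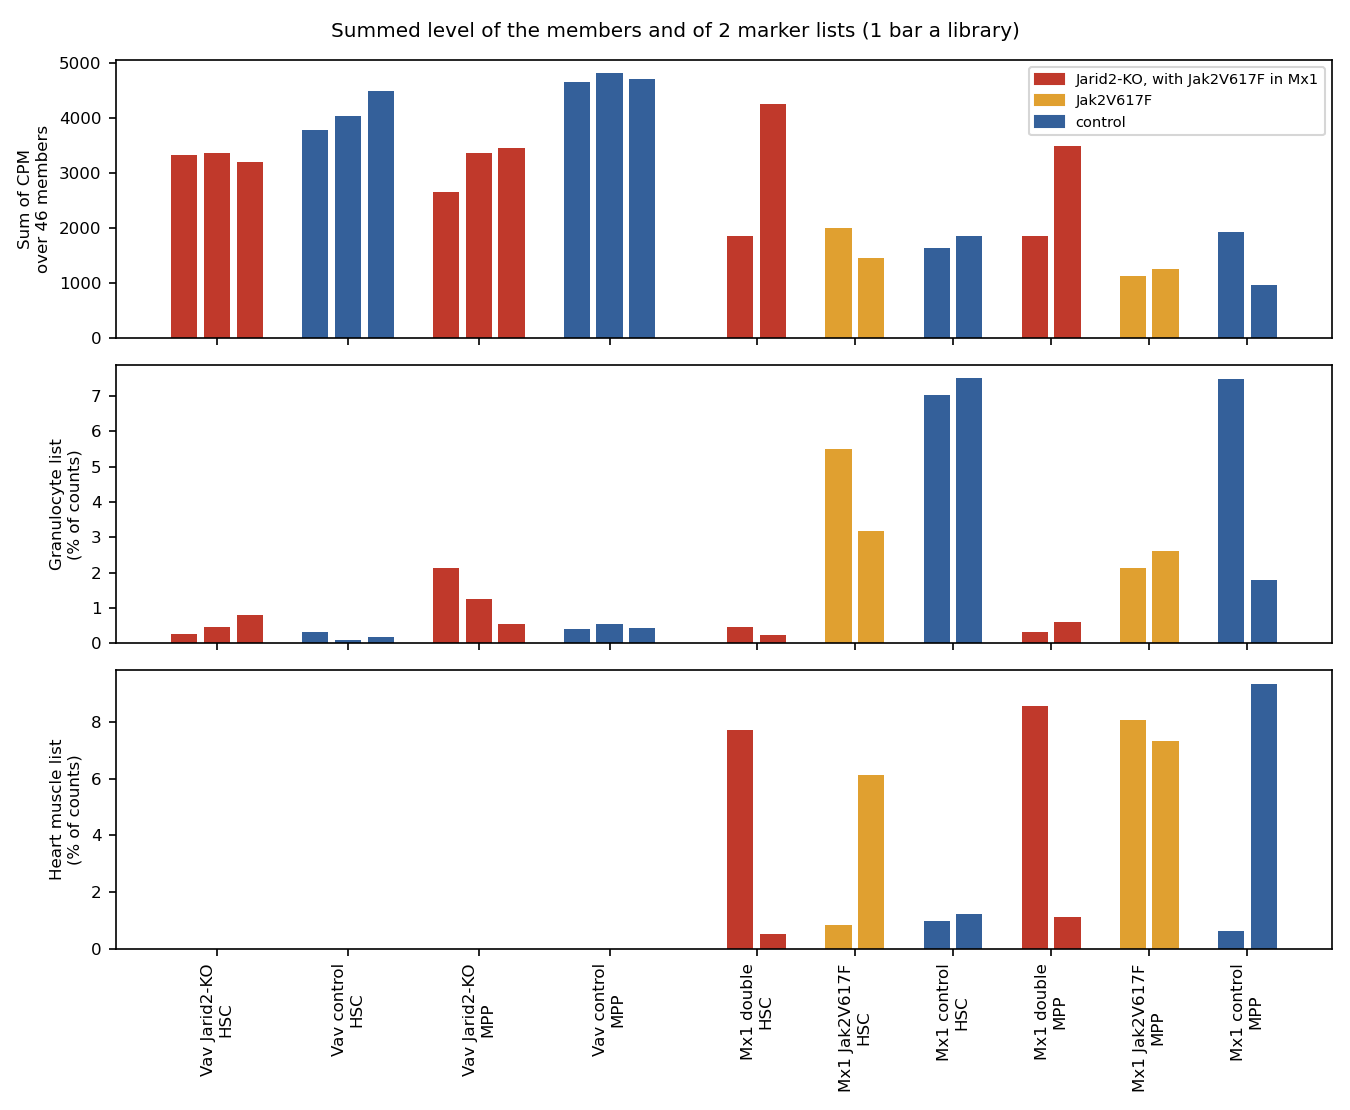
For each library, the summed CPM of the 46 members and the percent of counts taken by granulocyte and by heart muscle genes, with mutants left of controls within cohort and cell type. The Vav KO sums are 2660 to 3467 and the Vav control sums 3788 to 4820, while heart muscle counts above 4% occur in 6 Mx1 libraries only.

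The 2 cohorts' Jarid2 comparisons share no library, and the members' directions in them were opposite for most genes. The fitted change was below 0 in Vav KO and above 0 in double mutants over Jak2V617F for 33 members in HSCs and 38 in MPPs, and no member had the reverse signs. Both were negative for 6 in HSCs (Oasl1, Eif2ak2, Sp100, Cmpk2, Isg20 and Samd9l) and 3 in MPPs (Ifit3b, Mx1 and Ifi27l2a). Both were positive for 7 in HSCs, among them Batf2, Isg15, Psmb8, Tap1 and Bst2, and for 5 in MPPs. By libraries, 15 members in HSCs were lower in every Vav KO library than in any control and higher in both double mutants than in either Jak2V617F library, against 2.52% of the 15228 genes tested in both cohorts. In MPPs there were 18, against 3.17%. The members with this pattern in both cell types were Oasl2, Ifit1, Ifit3, Ddx60, Usp18, Herc6, Rsad2, Rtp4, Ifi44 and Xaf1. The share of all genes with it in both cell types is not given here. None was lower without overlap in both cohorts, against 0.932% of these 15228 genes in HSCs and 1.5% in MPPs. With shares this low, finding none among 46 members says little. Higher in both were Isg15 and Bst2 in HSCs and Batf2 in MPPs, for which the share of all genes is not given here. Granulocyte genes ran against the members in both cohorts, with 7 of 7 above 0 in Vav KO (medians 1.15 in HSCs and 1.28 in MPPs) and 7 of 7 below 0 in double mutants over Jak2V617F (medians -3.83 and -3.57), and their part was not tested. Cre driver, age, pIpC, the Jak2V617F background and the heart muscle counts all differ between the cohorts and cannot be told apart. Slamf1 and Cd48 differ between double mutant and Jak2V617F HSCs, as given above, and their part was not tested, and no model tested the difference between the cohorts.

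**Figure D5:**
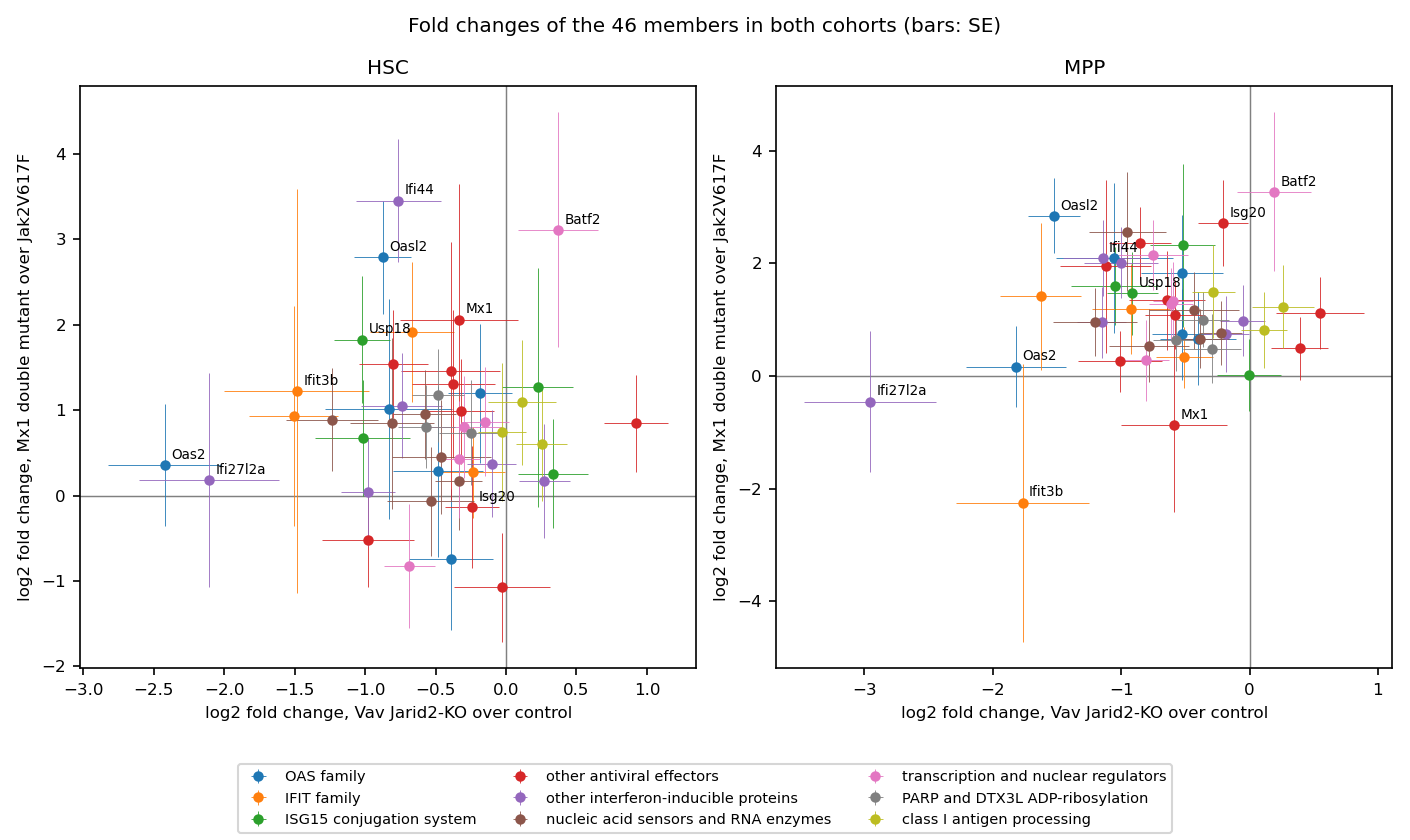
Each point is a member, with the log2 fold change of Vav Jarid2-KO over control on the x axis, that of Mx1 double mutant over Jak2V617F on the y axis, SE bars, and a panel each for HSC and MPP. Most points, 33 in HSCs and 38 in MPPs, lie in the upper left, below 0 in Vav and above 0 in Mx1.

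Members with and without the promoter letters had medians of the same sign in each comparison. The median log2 fold change in Vav HSCs was -0.54 for the 13 members with GAAANNGAAA, -0.30 for the 21 whose promoter lacked it and -0.64 for the 12 not in the table. In Vav MPPs these medians were -0.64, -0.40 and -0.88. In double mutants over Jak2V617F they were 0.99, 0.42 and 1.01 in HSCs and 1.09, 1.12 and 1.06 in MPPs. Isg15 and Bst2 hold the motif and were 2 of the 3 members higher without overlap in Vav KO HSCs.

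Other genes of the pathway were described alongside. Over 12 genes for the receptor, its kinases and ISGF3, the median log2 fold change of KO over control was -0.07 in Vav HSCs and -0.11 in Vav MPPs. In double mutants over Jak2V617F it was -0.06 in HSCs, with 5 of 12 above 0, and 0.51 in MPPs, with 11 of 12 above 0. Of 21 genes for nucleic acid sensing and interferon induction, 13 were tested in the Vav cohort and none was called in KO HSCs or MPPs. Ifnb1, the gene of interferon beta, was at 0 counts in every Vav library. In the Mx1 cohort it was at 0 in double mutant MPPs and in both control groups. It had counts in at least 1 library of double mutant HSCs, Jak2V617F HSCs and Jak2V617F MPPs, too few for it to be tested. Ifna2, of the same list, had counts in at least 1 library of Vav control HSCs and of Mx1 control MPPs. Presence of such counts was therefore not read as a difference between genotypes.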

How the data were processed

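RNA was extracted from pooled sorted cells and amplified with SMARTer Ultra Low kits, per the labels' protocols. STAR 2.0.4, Subread, featureCounts 1.4.5, HTSeq 0.8.0, Partek 6.6 and mm10 are named, without roles, per the submitters' processing notes, and strand settings are not given in the sources used here. The deposited tables give raw counts, CPM and RPKM per gene, and both normalized units were recomputed from the counts by the authors' definitions to within 5.5e-11. The 8 ChIP samples were not analysed here. Replicates are pools, with 3 libraries per Vav group and 2 per Mx1 group.

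The 2 cohorts were fitted separately on the counts with edgeR 4.0.16 (R 4.3.3; quasi-likelihood F test, TMM scaling, filterByExpr with a minimum count of 10 and a minimum total of 15), all groups of a cohort sharing one spread, and Benjamini-Hochberg adjustment over all genes tested at 0.05. SEs are the log2 fold change over the square root of F. Residual degrees of freedom were 8 in Vav and 6 in Mx1. The fit was also run on simulated counts, with a spread set near that of the Vav cohort and below that of the Mx1 cohort. That run does not tell what the Mx1 tests can find. Alternatives were DESeq2 1.42.0 size factors and Wald test, limma 3.58.1 voom with quality weights, no filter, a minimum count of 20, a replicate block, a heart set term (libraries over 4% heart counts) and each library left out. A crossed replicate block and values within heart sets (pseudocount 0.5) were added after the data had been seen. Replicate numbers were not taken to pair the samples: no label says that a number marks a shared animal or day, and same-numbered libraries did not all correlate over 0.1 in either cohort.

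Some results of the other gene lists are not reported here. The members and all gene lists were chosen with earlier results of these data known. Named genes, 29 in all, are the called members and, of every role, the member of highest mean RPKM over the Vav libraries and the member of largest absolute log2 fold change in each Vav KO comparison and each comparison of double mutants with Jak2V617F. Any other gene given values was chosen after its values were seen.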

Additional observations from a re-analysis of the deposited data

Results flagged for a closer look

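In HSCs, 15 members were lower in every Vav Jarid2-KO library and higher in every Mx1 double mutant library, each against its own comparison group. In MPPs 18 were. Of all genes tested in both cohorts, 2.52% had this pattern in HSCs and 3.17% in MPPs. The 2 directions are opposite under the same labelled Jarid2 deletion in 2 cohorts, and the difference between the cohorts was not tested. The 15 and 18 members were picked for these opposite directions, so a gap above 0 follows from the selection. For the named members among them, the log2 fold change in Mx1 (double mutant over Jak2V617F) minus that in Vav (KO over control) is given here. In HSCs it was 3.67 for Oasl2, 2.58 for Ifit1, 2.44 for Ifit3 and 2.70 for its copy Ifit3b. It was 1.53 for the sensor Ifih1 and 2.13 for Ddx60, 2.85 for Usp18 and 1.69 for Herc6. It was 2.34 for Rtp4, 1.65 for Parp9, 1.37 for Dtx3l and 4.22 for Ifi44, the widest gap in HSCs among these genes. In MPPs it was 4.37 for Oasl2, the widest there, 2.11 for Ifit1 and 3.04 for Ifit3. It was 2.16 for Ddx60 and 3.52 for Zbp1, and 1.88 for the transcription factor Irf1. It was 2.38 for Usp18, 2.65 for Herc6, 3.07 for Mx2, 3.21 for Rtp4, 2.11 for Ifi27 and 3.24 for Ifi44. The Mx1 values rest on 2 libraries a group with SEs of 0.48 to 2.36, and none of the members passed the threshold there in edgeR's test as fitted for the report.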

How the results depend on the processing

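With DESeq2 size factors the called counts were unchanged at 4 in Vav HSCs, 6 in Vav MPPs and 0 in each Mx1 comparison. Without a filter 10 were called in Vav HSCs and 16 in MPPs (1.23% and 1.19% of all genes lower), by DESeq2's Wald test 9 and 16 (2.31% and 2.45%), and by limma-voom 18 and 11 (4.49% and 1.23%), the causes not being tested. All of these were lower in KO except 1 higher call in HSCs under each. The replicate block left 1 call in Vav HSCs and 4 in MPPs, and 0 in every Mx1 comparison. Same-numbered samples of one genotype correlated at -0.009 to 0.299 in the Vav cohort, so the numbers were not taken as pairs. In Mx1, same-numbered double mutant HSC and MPP libraries correlated at 0.523, and both replicate 1 libraries are among those with over 4% heart counts. Crossing the numbers in 2 Mx1 comparisons where they correlated at -0.431 and -0.5 called 0 in both. Leaving out 1 library gave 0 to 1 calls in Vav HSCs and 1 to 20 in MPPs. In double mutants over Jak2V617F, no filter and the Wald test called 2 each in HSCs (0.224% and 0.581% of all genes higher), and the Wald test 1 in MPPs (0.138%). Over controls, no filter called 4 in HSCs and 1 in MPPs (0.247% and 0.144%), the Wald test 4 and 2 (0.642% and 0.367%), limma-voom 1 in HSCs (0.0969%), and the heart set term 8 and 4, with 2 and 3 over Jak2V617F. Leaving out 1 library gave 0 to 2 over controls in HSCs, 2 being without double mutant replicate 1 (0.0852%). Adjusted p of the called members over the alternatives reached 0.105 and 0.197 for Oas2 in HSCs and MPPs, 0.237 and 0.137 for Ifit3, 0.204 and 0.235 for Usp18, 0.152 and 0.0587 for Ifi27, and 0.0746 for Ifi27l2a in MPPs.

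Of 1360 values, 1215 kept their direction and side of the threshold, and 35 reversed sign, none of them in a comparison where the member was called. In Vav HSCs Psmb9 was 0.0157 with no filter and Tap1 -0.0081 with limma-voom. In double mutants over Jak2V617F, limma-voom gave -0.0591 for Ifi27 and -0.0606 for Ifi27l2a in HSCs. There the heart set term gave 0.0585 for Isg20, -0.0201 for Ifi27 and -0.44 for Ifi27l2a, and in MPPs -0.48 for Sp100, 0.62 for Mx1, -0.16 for Samd9l and 0.0866 for Ifi27l2a. With 1 library left out, values ran in Vav HSCs from -0.16 to 0.0728 for Psmb9 and -0.0635 to 0.24 for Tap1, and in MPPs from -0.024 to 0.24 for Psmb8. In double mutant over Jak2V617F HSCs they ran from -0.0163 to 1.53 for Dhx58, -0.52 to 0.58 for Ifi27, -1.32 to 0.95 for Ifi27l2a, -0.63 to 1.04 for Isg20, -0.41 to 1.12 for Lgals3bp, -0.0402 to 0.83 for Oas2, -0.12 to 1.42 for Psmb9 and -1.47 to 0.0166 for Sp100. In MPPs they ran from -1.95 to 0.99 for Ifi27l2a, -0.24 to 0.74 for Oas2, -0.0014 to 1.10 for Parp9, -0.19 to 0.61 for Samd9l and -0.32 to 0.71 for Sp100. The Mx1 cohort has 2 libraries a group and a biological coefficient of variation of 0.786, against 0.337 in Vav, which limits what its tests can call.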

Other observations

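Related interferon-inducible families outside the 46 genes were described by the same fits, as counts and values. Of 18 interferon-inducible GTPases, which attack the vacuoles of intracellular pathogens, 15 were tested. All 15 had fitted changes below 0 in Vav KO HSCs and MPPs (medians -0.91 and -0.72). Gbp8 and Tgtp2 fell in HSCs, Tgtp2 with 154, 135 and 116 CPM in KO and 306, 364 and 211 CPM in control libraries (log2 fold change -1.20, SE 0.24, adjusted p = 0.0427). In double mutants over Jak2V617F, 15 of 15 in HSCs and 14 of 15 in MPPs were above 0 (medians 2.34 and 2.32), and none passed the test. Tgtp2 had 175 and 295 CPM in double mutant HSCs and 19.4 and 26.5 CPM in Jak2V617F HSCs.

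Of 41 further type I interferon response genes, 1 fell in Vav KO MPPs, Phf11d, with 1.88, 0.501 and 1.62 CPM in KO and 8.66, 11.9 and 8.91 CPM in control libraries. The medians were -0.10 in HSCs and -0.22 in MPPs, and 0.85 and 0.76 in double mutants over Jak2V617F. In the Ifi200 family, 11 of 14 were tested in Vav and members moved in both directions. Ifi213 was called lower in KO HSCs and MPPs. It had 0, 0 and 0.286 CPM in KO MPPs and 3.40, 5.16 and 5.64 CPM in control MPPs. Ifi204 had 84.5, 73.6 and 99.2 CPM in KO MPPs and 3.17, 7.29 and 4.45 CPM in control MPPs and was called higher (log2 fold change 4.12, SE 0.75, adjusted p = 0.0165), as was Ifi211 (log2 fold change 4.63, SE 0.93, adjusted p = 0.0318). These genes are close copies, so how reads were split among them is uncertain.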
